A study of Saccharomyces cerevisiae with 6 samples.

Results

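Stable unannotated transcripts (SUTs) are noncoding RNAs of budding yeast, known by number and not by gene name. The members here were all rows of the deposited expression table whose name starts with SUT, chosen by that name and not by any value, and there were 847 of them among 7247 rows. The other rows were 925 cryptic unstable transcripts (CUTs) and 5475 rows of genes. The study compared transcripts of yeast that lacks BUD27, which encodes a prefoldin-like protein, with those of wild type with and without rapamycin, an inhibitor of the TOR kinase. All 6 samples were Saccharomyces cerevisiae of the BY4741 background, grown in rich glucose medium (YPD) at 30 °C to an optical density near 0.8. They comprised 2 samples of wild type (WT) without drug, 2 of a strain with BUD27 deleted (bud27∆) without drug, and 2 of the same WT incubated overnight with rapamycin at 50 ng/ml, whose titles read "WT + Ramycin". The number of bud27∆ clones is not given in the sources used here, and no label calls the replicates separate cultures. A p-value below therefore measures how these libraries differ among themselves, a spread that may be technical.

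SUTs were defined as RNA polymerase II transcripts that are seen in wild-type cells, whereas CUTs become visible mainly when the nuclear exosome is impaired. Many of both arise from nucleosome-depleted regions, often divergently from the promoter of a coding gene or antisense to one. CUTs are terminated by the Nrd1-Nab3-Sen1 complex and degraded by the nuclear exosome with its TRAMP cofactor. SUTs more often end like mRNAs, carry poly(A) tails, and are degraded largely in the cytoplasm by decapping and the exonuclease Xrn1.

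Of the 847 SUT rows, 9 have a place in the RefSeq annotation of genome build R64 and 838 do not, so positions and sequences are given for those 9 alone. The 3′ ends of 4 of them are printed because libraries were read from the 3′ end of polyadenylated RNA and because these SUTs carry the results below. SUT532 lies at chrVII:17213-17709 on the minus strand between ADH4 and ZRT1, and it is the annotated SUT that fell in bud27∆. SUT053, at chrIV:506334-507774 on the plus strand, and SUT468, at chrIV:506546-507450 on the minus strand, overlap by 905 bases, which is the whole of SUT468, and both rose after rapamycin. SUT126 lies at chrVII:660087-661399 on the plus strand and rose after rapamycin too. Each line gives the last 300 bases of the transcript, 5′ to 3′, on its own strand. Capitals mark TCTT, the motif bound by Nab3, and GTAA or GTAG, the motifs bound by Nrd1.
SUT532 (chrVII:17213-17512, minus strand): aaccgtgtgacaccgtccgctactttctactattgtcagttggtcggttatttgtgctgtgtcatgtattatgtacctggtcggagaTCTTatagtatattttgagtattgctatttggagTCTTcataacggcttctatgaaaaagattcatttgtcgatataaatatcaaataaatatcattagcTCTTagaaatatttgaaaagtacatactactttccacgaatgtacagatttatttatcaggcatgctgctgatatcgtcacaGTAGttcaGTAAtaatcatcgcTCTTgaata
SUT053 (chrIV:507475-507774, plus strand): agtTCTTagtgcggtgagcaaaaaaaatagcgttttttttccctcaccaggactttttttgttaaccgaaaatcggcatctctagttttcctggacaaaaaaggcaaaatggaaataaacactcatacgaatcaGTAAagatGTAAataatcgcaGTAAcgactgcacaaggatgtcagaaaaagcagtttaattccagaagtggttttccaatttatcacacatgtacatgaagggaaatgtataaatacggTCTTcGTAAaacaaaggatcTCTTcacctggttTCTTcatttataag
SUT468 (chrIV:506546-506845, minus strand): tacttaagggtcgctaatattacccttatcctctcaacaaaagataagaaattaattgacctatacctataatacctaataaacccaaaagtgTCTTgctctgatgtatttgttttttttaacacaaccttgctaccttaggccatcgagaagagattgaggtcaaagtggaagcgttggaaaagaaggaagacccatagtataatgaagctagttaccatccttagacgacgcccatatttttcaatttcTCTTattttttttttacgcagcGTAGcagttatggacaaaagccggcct
SUT126 (chrVII:661100-661399, plus strand): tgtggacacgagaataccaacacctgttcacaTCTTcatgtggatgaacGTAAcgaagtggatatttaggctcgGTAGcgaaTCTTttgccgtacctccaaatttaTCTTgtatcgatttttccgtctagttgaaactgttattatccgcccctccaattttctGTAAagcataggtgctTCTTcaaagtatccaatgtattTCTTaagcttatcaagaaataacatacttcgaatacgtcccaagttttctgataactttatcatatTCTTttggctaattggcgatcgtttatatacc
TCTT occurred 4 times in SUT532, 4 times in SUT053, 2 times in SUT468 and 6 times in SUT126. The Nrd1 motifs together occurred 2, 4, 1 and 3 times in the same order. A GTAG can share its last base with a GTAA that follows it, and both were then counted. Cut into consecutive windows of 300 bases and read on both strands, the R64 genome gave 80458 windows, of which 84.68% held TCTT (mean 2.42 a window), 71.84% held GTAA (mean 1.31) and 53.61% held GTAG (mean 0.83). A match is a run of letters and was not tested as a binding site.

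The labels were checked with BUD27 itself. Its row held 268 and 246 reads in the WT libraries, 326 and 234 after rapamycin, and 6 and 9 in bud27∆, where it fell by 2.52 on the log2 scale (adjusted p = 6.09e-05, limma). BUD27 also fell after rapamycin, by 0.58 (adjusted p = 0.0399), from 12.8 and 16.6 to 9.53 and 9.37 scaled CPM, the unit explained next. The authors' CPM values (counts scaled to a fixed library total) could be turned back into whole reads. Totals were 26899486 and 18153459 reads for WT, 28774941 and 20841682 for rapamycin, but 3212848 and 5088194 for bud27∆. The limit set by a value of 0 is 3 reads, equal to 0.112 CPM for WT replicate 1 but 0.934 CPM for bud27∆ replicate 1, so a low SUT was measured less well in bud27∆. Such floors and the read-count intervals below cover counting error only. CPM were rescaled by TMM factors, which make most genes equal between libraries. Levels below are in this scaled CPM. Each fold change is a difference of log2(scaled CPM + 1), where the added 1 makes changes of low rows look smaller. In 3′ end libraries a transcript gives reads at its end, so levels were not divided by length.

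SUTs were low in every group. The median SUT row had 1.44 scaled CPM in WT, 1.10 in bud27∆ and 2.00 after rapamycin, whereas the median gene row had 21.5, 23.5 and 24.1. Over the 6 libraries the mean level was at most 1 scaled CPM for 310 SUT rows, from 1 to 3 for 256, from 3 to 10 for 207, from 10 to 30 for 62 and above 30 for 12. A read was found for 785 and 773 SUT rows in WT, 655 and 676 in bud27∆, and 797 and 785 after rapamycin. At the depth of the shallowest library the numbers expected were 654 and 663, 655 and 632, and 698 and 698, so at equal depth WT and bud27∆ were close and the rapamycin libraries still showed more. The filter on low values passed 663 SUT rows and left 184 out, and the tests below cover the 663. It turned 10 reads at the median library size into a CPM level that any 2 libraries had to reach, whatever their group. It also asked for a minimum of reads over all libraries. SUT026 passed with 3 and 0 reads in WT, 2 and 0 in bud27∆, and 11 and 13 after rapamycin. SUT027, with 7 and 3 reads in bud27∆ and few elsewhere, did not pass. Rows seen mainly in the shallow bud27∆ libraries could thus fail more easily on total reads.

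In all, SUT reads made up a larger part of the libraries after rapamycin than in WT. They were 0.251% and 0.308% of the reads in listed rows in WT, 0.403% and 0.316% in bud27∆, and 0.711% and 0.683% after rapamycin. The mean was 0.280% ± 0.041 (SD, n = 2) in WT and 0.697% ± 0.020 (SD, n = 2) after rapamycin, a ratio of 2.49. Both rapamycin libraries lay above all 4 others, and the 2-sided exact permutation test gave p = 0.33, which is the smallest that 2 samples against 2 allow. In bud27∆ the direction depended on the denominator. The share of listed reads was 1.29 times that of WT with no overlap (exact permutation p = 0.33), the share of all reads was 1.14 times and overlapped WT (exact permutation p = 0.667), and the summed scaled CPM was 2502 and 2290 against 2614 and 2937 in WT, a ratio of 0.863. After rapamycin the summed scaled CPM was 4666 and 4451, 1.64 times that of WT, so the sum was higher on each of the 3 scales, by different amounts. In samples of whole cultures, fewer cells that make a transcript and less of it per cell cannot be told apart.

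CUT reads were a smaller part of the libraries in both other groups than in WT. They were 7.37% and 7.55% of listed reads in WT, 5.39% and 5.54% in bud27∆, and 5.61% and 5.37% after rapamycin. The median CUT row was low, at 0.817 scaled CPM in WT, 0.576 in bud27∆ and 0.401 after rapamycin. Of 609 CUT rows tested, 41 had a mean above 30 scaled CPM. The CUT sum is carried by such abundant rows and is not the level of a typical CUT. The SUT signal was spread over many rows, with the 10 most abundant of each library holding between 14.4% and 21.7% of its SUT reads. The top row was SUT090 in the WT and rapamycin libraries and SUT789 in those of bud27∆. Without the 10 SUT rows most abundant in WT, SUT067 among them, an alternative added after seeing the data, the shares were 0.210% and 0.265% in WT, 0.369% and 0.281% in bud27∆ and 0.616% and 0.596% after rapamycin, in the same order.

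**Figure D1:**
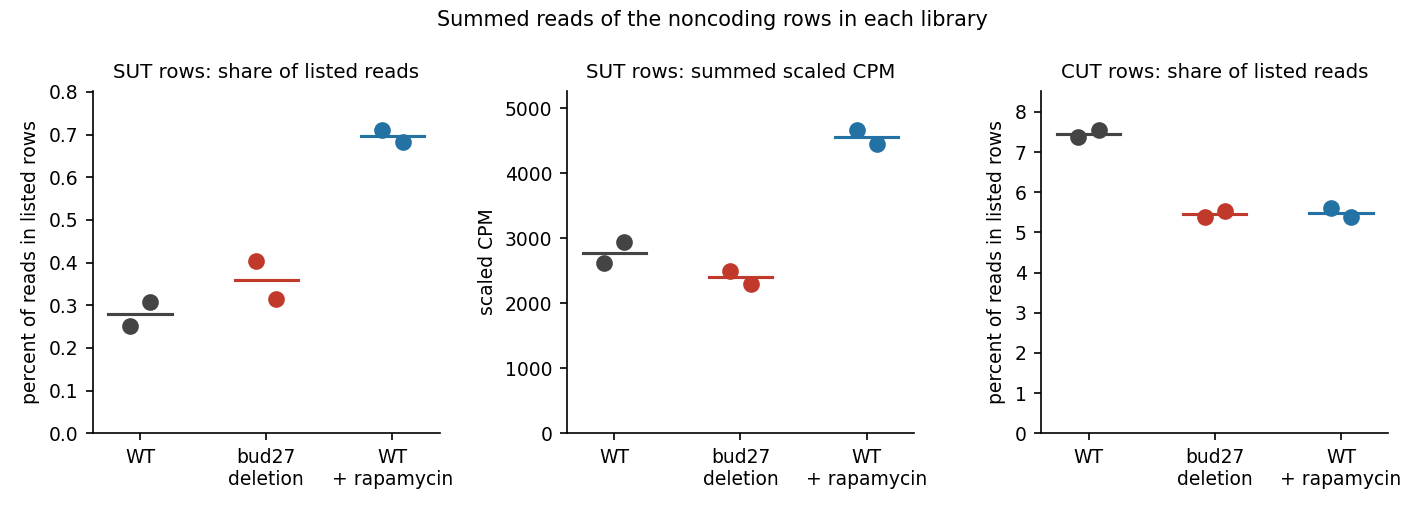
Summed reads of SUT rows as a percentage of reads in listed rows (left) and as scaled CPM (middle), and of CUT rows as a percentage (right), for the WT, bud27∆ and rapamycin libraries. Points are libraries and bars are means of 2, and the SUT share is 0.251% and 0.308% in WT and 0.711% and 0.683% after rapamycin, while the CUT share is 7.37% and 7.55% in WT and 5.61% and 5.37% after rapamycin.

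More SUTs rose than fell after rapamycin. Of the 663 SUT rows tested, 216 rose and 55 fell after rapamycin (limma, Benjamini-Hochberg adjusted p under 0.05), where 44.1% of all 6551 rows tested were called, 24.1% higher and 20% lower. That is 32.6% of SUT rows higher and 8.30% lower, against 7.72% of CUT rows higher and 28.2% lower. Among the SUT calls the log2 fold change was at least 1 in size for 108 of the rises and 24 of the falls. This cut was not counted over all rows, and the added 1 makes it harder for low rows to reach. The groups did not overlap for 380 SUT rows that were higher (all rows 43.2%) and 149 that were lower (all rows 37.3%), where 80.5% of all rows had no overlap in either direction. The median log2 fold change was 0.34 over the SUT rows, 0.06 over all rows and -0.38 over the CUT rows. Rows can be set beside gene rows of like level. At 3 to 10 scaled CPM 40.6% of SUT rows were higher and 28.5% of gene rows, and at 10 to 30 scaled CPM 51.6% and 25.7%. Below that the shares were close, at 29.7% and 29.3% for 1 to 3 scaled CPM. This comparison between classes was not tested.

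The SUT median after rapamycin depended on the scale, and the number of calls on the libraries used. Without TMM the median over all rows moved from 0.06 to 0.56, and calls over all rows went from 2890 to 3883. On this deposited scale 350 SUTs were higher and 28 lower. Calls over all rows were not split by direction there or in the fits that follow, so these SUT counts have no directional share beside them. Without WT replicate 1, WT replicate 2, rapamycin replicate 1 or rapamycin replicate 2 the calls came to 159, 172, 147 and 150 in place of 271, and 117, 144, 117 and 122 of these were higher. Calls over all rows fell alike, to 1883, 1897, 1793 and 1886, and the SUT median in these fits lay between 0.266 and 0.347. It moved from 0.34 to 0.72 on the deposited scale and stayed above that of all rows.

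**Figure D2:**
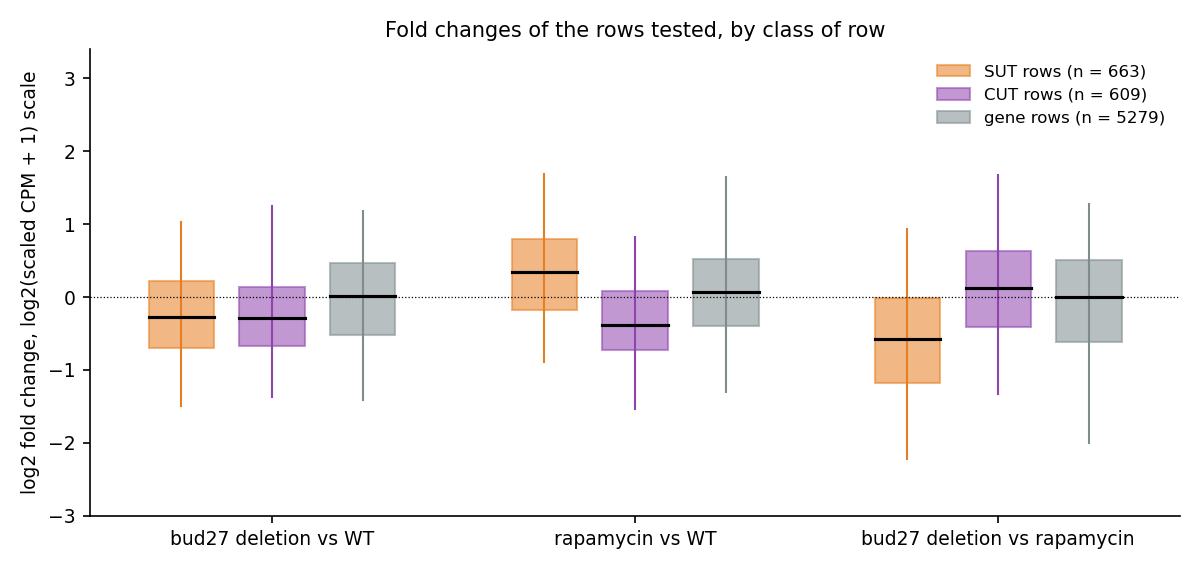
Fold changes of the rows tested, for 663 SUT, 609 CUT and 5279 gene rows in each comparison, on the log2(scaled CPM + 1) scale. Boxes span the middle 50% with the median as a line and whiskers reach from the 5th to the 95th percentile, and the SUT median is 0.34 after rapamycin, where the CUT median is -0.38.

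The largest rises after rapamycin were those of SUT608, SUT118, SUT145 and SUT423, all low in WT. The SUTs named here and below are those of largest fold change among called rows whose groups did not overlap. Their mean over the 6 libraries was at least 3 scaled CPM, which a row low in WT could reach through another group alone. SUT608 had 5.01 and 6.29 scaled CPM in WT, 0.841 and 3.55 in bud27∆, and 95.7 and 94.95 after rapamycin. The rapamycin libraries stood far above the other 4, and the fold change on the log2 scale was 3.86 (SE 0.37, adjusted p = 0.000144). SUT118 had 0.525 and 0.473 scaled CPM in WT, 0.561 and 0.591 in bud27∆, and 20.9 and 20.8 after rapamycin. WT and bud27∆ were both near the floor, and the rise was 3.86 (SE 0.18, adjusted p = 6.12e-06), or 41.3-fold in reads with a 95% counting interval of 26.0 to 70.0. SUT145 rose by 3.46 (SE 0.25, adjusted p = 3.91e-05), from 1.19 and 1.69 scaled CPM in WT to 25.8 and 25.7, with 3.37 and 1.77 in bud27∆. SUT423 rose by 3.43, from 3.39 and 4.94 to 55.2 and 52.8, and had 0.841 and 3.94 in bud27∆.

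SUT355, SUT621, SUT350 and SUT007 completed this group of rises, with log2 fold changes of 3.30, 3.10, 2.80 and 2.73. SUT350 was already well expressed in WT, at 18.3 and 15.5 scaled CPM, and reached 127.9 and 119.2 after rapamycin. SUT007 was seen with 10 and 12 reads in WT and 394 and 209 after rapamycin. In bud27∆ it had no read in either library, which is at least 29.3-fold lower than after rapamycin when 3 reads over the group are taken as the floor. SUT090, the most abundant SUT of WT, had 89.7 and 76.9 scaled CPM in WT, 52.4 and 56.2 in bud27∆, and 271.0 and 228.4 after rapamycin. It rose by 1.57 after rapamycin (SE 0.15, adjusted p = 0.000124) with all 3 groups apart.

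The falls after rapamycin were smaller on this scale, where a fall cannot exceed log2(scaled CPM + 1) of the WT level. A rise has no such limit, so the sizes of rises and falls cannot be compared. SUT447 fell by 1.60 (SE 0.20, adjusted p = 0.000524), from 10.6 and 14.1 scaled CPM to 3.30 and 3.45. SUT280 fell by 1.44 (SE 0.21, adjusted p = 0.00111), from 30.8 and 21.6 to 9.12 and 8.61. SUT721, the third most abundant SUT of WT, fell by 1.15 (SE 0.13, adjusted p = 0.000326), from 50.3 and 48.4 to 22.3 and 21.1. In each of these 3 both rapamycin libraries lay below both of WT. SUT128, SUT041, SUT130, SUT588 and SUT378 fell by 1.49, 1.40, 1.32, 1.26 and 1.17. The call of SUT378 was lost without any 1 of the 4 WT and rapamycin libraries (adjusted p from 0.0535 to 0.152) and on the deposited scale, and that of SUT128 without WT replicate 2 (adjusted p = 0.0647).

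More SUTs fell than rose in bud27∆ against WT, with a split that depended on the scale. Of the 663 rows, 65 rose and 189 fell (limma), where 45.2% of all rows were called, 20.6% higher and 24.5% lower. In SUT rows this is 9.80% higher and 28.5% lower, and in CUT rows 10.5% and 26.4%. With the deposited CPM left as they are, 111 SUTs were higher and 111 lower. The median over all rows then moved from -0.05 to 0.29 and calls over all rows from 2958 to 3319. In the alternatives calls over all rows were not split by direction. The groups did not overlap for 136 SUT rows that were higher (all rows 33.9%) and 308 that were lower (all rows 38.3%), where 72.2% of all rows had no overlap in either direction. The median log2 fold change was -0.28 over SUT rows, -0.05 over all rows and -0.28 over CUT rows, and on the deposited scale the SUT median of -0.03 was again under that of all rows. Without WT replicate 2 the SUT calls came to 135, of which 94 were lower, and calls over all rows to 1639.

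Among SUT rows of 10 to 30 scaled CPM 45.2% fell in bud27∆ and 11.3% rose, against 16.5% and 27.5% of gene rows at that level. At 1 scaled CPM or less the shares were 17.5% lower for SUT rows and 13.7% for gene rows. The difference between the classes was not tested. Of the 10 SUTs most abundant in WT, the 12 rows that cannot be told apart from another row (below) left aside, 9 fell in bud27∆ and 1, SUT434, had a log2 fold change of 0.06 (adjusted p = 0.823). The 9 were SUT090, SUT091, SUT721, SUT710, SUT567, SUT147, SUT280, SUT388 and SUT392, with log2 fold changes from -4.32 to -0.60. On the deposited scale the calls of SUT090, SUT091 and SUT392 were lost (adjusted p = 0.225, 0.064 and 0.256). That of SUT090 was also lost without WT replicate 1 (adjusted p = 0.0698) and that of SUT392 without WT replicate 2 (adjusted p = 0.0659). Since these 10 were picked by their WT level, their falls are a description.

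SUT280 was nearly lost from bud27∆. The WT libraries held 644 and 319 reads of it, those of bud27∆ 1 and 2, and those with rapamycin 312 and 215, or 30.8 and 21.6, 0.280 and 0.394, and 9.12 and 8.61 scaled CPM. The bud27∆ libraries lay far below the other 4, and the fold change was -4.32 (SE 0.21, adjusted p = 8.39e-06). In reads this was a ratio of 77.6 between WT and bud27∆, with a 95% counting interval of 26.5 to 377. SUT532 had 8.16 and 12.4 scaled CPM in WT, 0 and 1.18 in bud27∆, and 20.7 and 18.1 after rapamycin. It fell by 2.91 in bud27∆ (SE 0.36, adjusted p = 0.000608), with the 3 groups apart.

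Behind them SUT513 fell by 2.42, from 12.1 and 10.9 scaled CPM to 1.12 and 1.58, and SUT504 by 2.12, from 7.74 and 7.71 to 0.561 and 1.58. SUT447, SUT292, SUT784 and SUT193 fell by 1.99, 1.97, 1.89 and 1.86. SUT193 moved in opposite directions in the 2 comparisons with WT. It had 3.96 and 4.87 scaled CPM in WT, 0.841 and 0.197 in bud27∆, and 12.9 and 14.4 after rapamycin, where it rose by 1.44 (SE 0.25, adjusted p = 0.00222). SUT447 and SUT280 were lower than WT in both. The comparisons with WT share the WT libraries, so a common direction is no independent observation.

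The largest rises in bud27∆ were those of SUT370, SUT789 and SUT355. SUT370 had 13 and 1 reads in WT, 74 and 49 in bud27∆, and 96 and 85 after rapamycin, or 0.621 and 0.068, 20.8 and 9.66, and 2.81 and 3.41 scaled CPM. The bud27∆ libraries were the highest and WT the lowest, and the rise in bud27∆ was 3.53 (SE 0.35, adjusted p = 0.000229). SUT789 had 13.9 and 8.65 scaled CPM in WT, 228 and 70.0 in bud27∆, and 17.1 and 14.6 after rapamycin. It rose by 3.41 (SE 0.47, adjusted p = 0.00098), but the 2 bud27∆ libraries were themselves far apart, at 149 ± 112 scaled CPM (SD, n = 2). SUT355 had 6.54 and 7.44 scaled CPM in WT, 39.5 and 30.0 in bud27∆ and 79.8 and 75.4 after rapamycin, and it rose in both comparisons with WT, by 2.15 (SE 0.17, adjusted p = 7.29e-05) and 3.30.

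SUT408, SUT484 and SUT605 rose in bud27∆ by 2.12, 2.04 and 1.87. Their log2 fold changes after rapamycin were 0.54, 0.30 and 0.55, none of which passed the test (adjusted p = 0.0542, 0.266 and 0.0595). Set directly against rapamycin, bud27∆ was higher in SUT408 by 1.58, in SUT484 by 1.74 and in SUT605 by 1.33 (adjusted p = 0.000345, 0.000264 and 0.000969). SUT219 and SUT554 rose in bud27∆ by 1.62 and 1.58, and after rapamycin by 1.91 and 1.23. For these 2 the direct comparison gave -0.29 and 0.35, which did not pass the test (adjusted p = 0.352 and 0.338).

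**Figure D3:**
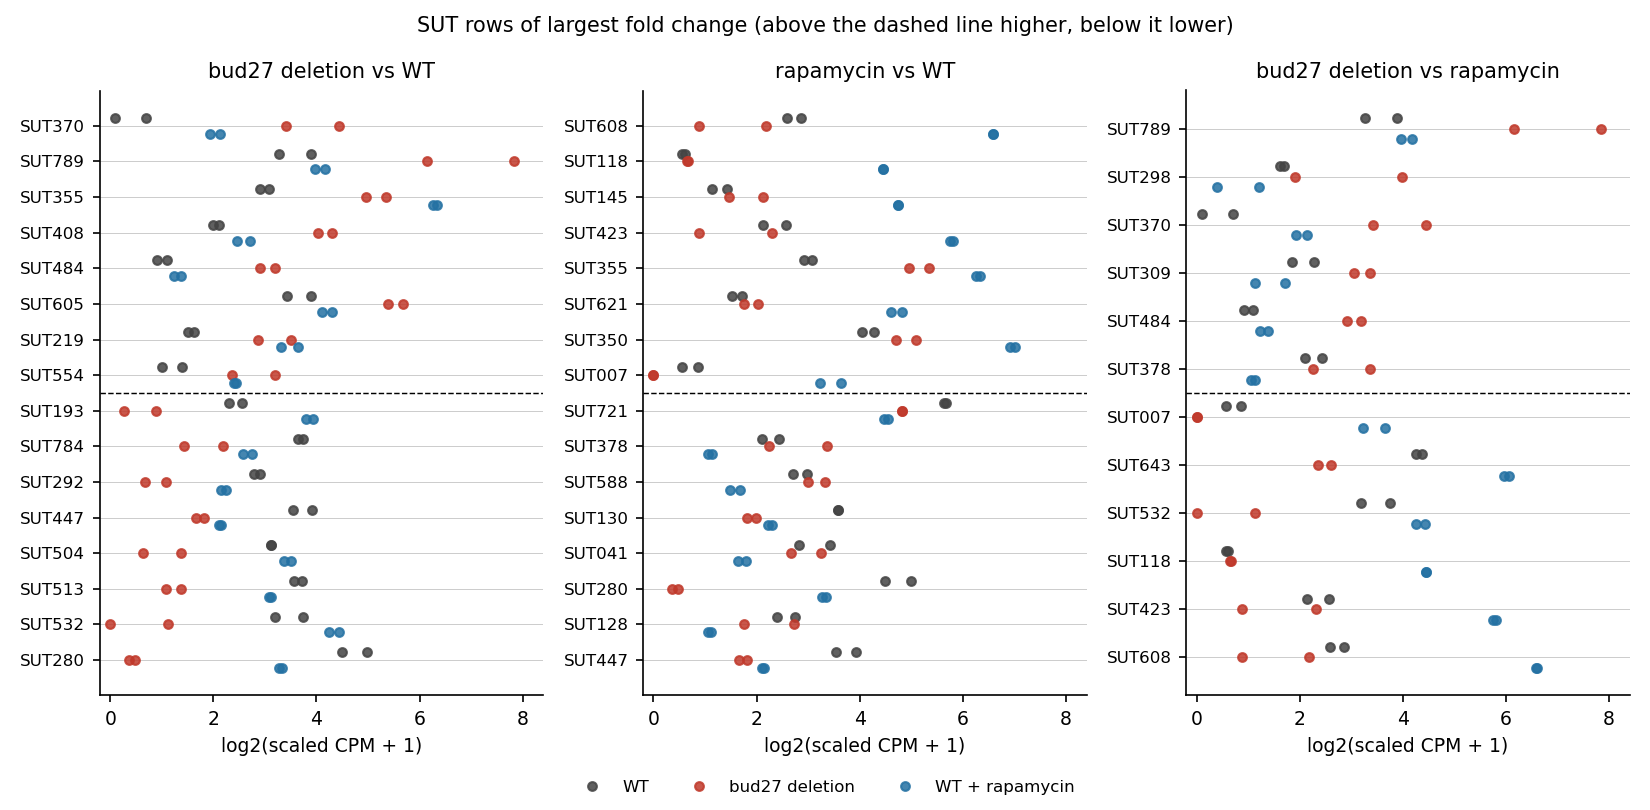
Levels of the SUTs of largest fold change in each comparison, as log2(scaled CPM + 1) on the horizontal axis, with each of the 6 libraries as a point coloured by group. Rows above the dashed line were higher and rows below it lower in the first group of the panel's title, and the rapamycin points of SUT608 and SUT118 stand apart from the other 4, as do the bud27∆ points of SUT280.

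The direct comparison of bud27∆ with WT treated with rapamycin uses untreated WT only through the TMM factors, the filter and the shared spread. It shares both of its groups with the comparisons above. In it 56 SUT rows were higher and 307 lower in bud27∆ (limma), where 53.6% of all rows were called, 24.1% higher and 29.5% lower. That is 46.3% of SUT rows lower, against 16.6% of CUT rows. The median log2 fold change was -0.57 over SUT rows, -0.04 over all rows and 0.12 over CUT rows. The groups did not overlap for 101 SUT rows that were higher (all rows 36.6%) and 420 that were lower (all rows 41.5%), where 78.1% of all rows had no overlap in either direction. Under the deposited scale 48 SUT rows were higher and 340 lower, where 3421 of all 6551 rows were called in either direction, not counted by direction. With a library left out the SUT median lay between -0.548 and -0.49. At 10 to 30 scaled CPM 75.8% of SUT rows were lower in bud27∆, against 24.4% of gene rows, and at 3 to 10 the shares were 52.2% and 32.1%. At 1 to 3 scaled CPM they were close, at 43.8% and 40.5%. At 1 scaled CPM or less fewer SUT rows than gene rows were lower, 25.4% against 32.4%. The difference between the classes was not tested.

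SUT608 differed most, with 3 and 18 reads in bud27∆ against 3275 and 2370 after rapamycin, and the log2 value was -5.06 (SE 0.37, adjusted p = 2.46e-05). SUT423, SUT118, SUT532 and SUT643 followed, at -4.19, -3.79, -3.78 and -3.52, together with SUT007, whose bound is given above. SUT643 was apart in all 3 groups. It had 19.7 and 18.1 scaled CPM in WT, 5.05 and 4.14 in bud27∆, and 61.3 and 65.2 after rapamycin, a fall of 1.83 in bud27∆ (SE 0.16, adjusted p = 0.000116) and a rise of 1.69 after rapamycin (SE 0.16, adjusted p = 0.000134).

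Higher in bud27∆ than after rapamycin were SUT789, SUT298, SUT370, SUT309, SUT484 and SUT378, by 2.92, 2.14, 1.89, 1.78, 1.74 and 1.71. SUT298 had 14.9 and 2.76 scaled CPM in bud27∆ and 1.32 and 0.320 after rapamycin. Its bud27∆ libraries were far apart, and its call did not hold without WT replicate 1 or 2, where the log2 fold change was 2.16 and 2.15. The WT libraries enter this comparison through the shared spread, the TMM factors and the filter. SUT309 had 2.58 and 3.85 scaled CPM in WT, 7.29 and 9.26 in bud27∆, and 1.20 and 2.28 after rapamycin, so bud27∆ was above the 4 others.

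**Figure D4:**
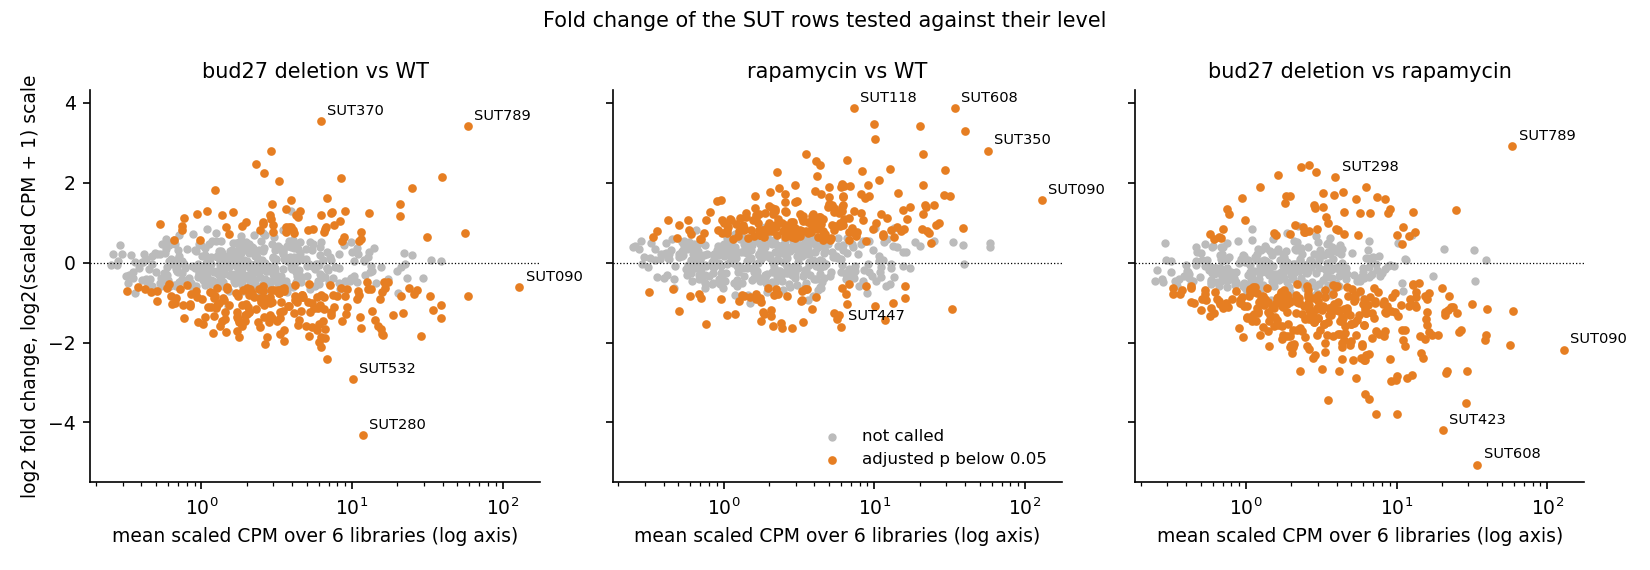
Fold change of each of the 663 SUT rows tested (vertical axis, log2(scaled CPM + 1) scale) against its mean level over the 6 libraries (horizontal log axis, scaled CPM), in the 3 comparisons. Orange points passed the test, with 65 above 0 and 189 below it in bud27∆, 216 and 55 after rapamycin, and 56 and 307 for bud27∆ against rapamycin.

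The spread between replicates sets how well such changes were seen. The median absolute log2 difference between the 2 replicates was 0.24 for SUT rows in WT, 0.31 in bud27∆ and 0.13 after rapamycin, and for gene rows 0.16, 0.28 and 0.10. SUT rows thus spread more than gene rows in each group, but they were also lower, and level was not matched. For CUT rows the values were 0.254, 0.316 and 0.136 in the same order.

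The 9 SUTs annotated in R64 were chosen by that annotation and not by their values. RefSeq describes SUT035, SUT125, SUT126 and SUT532 as acting in trans through transcription factors, and SUT053 and SUT468 as modulating coding genes in response to steroid biosynthesis. It states that deletion of SUT125, SUT390 or SUT418 improves invertase secretion, and that SUT169 raises expression of SPS100, a sporulation gene on the opposite strand. After rapamycin SUT053, SUT468 and SUT126 rose, SUT532, SUT125, SUT390 and SUT035 did not pass the test, and SUT169 and SUT418 had too few reads to be tested. In bud27∆ SUT532 was the 1 of these 7 that passed.

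SUT053 had 21.4 and 14.9 scaled CPM in WT, 18.5 and 16.2 in bud27∆, and 32.9 and 30.4 after rapamycin. The rapamycin libraries were above the other 4, which overlapped each other, and the rise was 0.79 (SE 0.19, adjusted p = 0.0119). SUT468, which runs antisense within SUT053 with its 3′ end 1228 bases away, had 1.10 and 2.10 scaled CPM in WT, 0.841 and 1.97 in bud27∆, and 3.89 and 3.53 after rapamycin. It rose by 0.88 (SE 0.29, adjusted p = 0.0377). The strand setting of the counting is not given in the sources used here, so reads of this overlapping pair may not have been told apart. SUT126 had 1.96 and 2.70 scaled CPM in WT, 1.40 and 1.38 in bud27∆, and 5.06 and 4.25 after rapamycin, a rise of 0.77 (SE 0.21, adjusted p = 0.0170).

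These 3 calls were fragile. Without 1 of the WT or rapamycin libraries the call of SUT468 was lost each time (adjusted p from 0.0534 to 0.24), as it was with a pseudocount of 0.25 (adjusted p = 0.058). That of SUT126 was lost without WT replicate 1 or either rapamycin library (adjusted p from 0.0659 to 0.157), and that of SUT053 without WT replicate 2 or rapamycin replicate 1 (adjusted p = 0.0888 and 0.0721). SUT532 had a log2 fold change of 0.87 after rapamycin that missed the threshold (adjusted p = 0.0819), and the count tests called it (adjusted p = 0.0189 with edgeR and 0.00774 with DESeq2). In limma SUT532 passed on the deposited scale (1.41, adjusted p = 0.0103) and with a pseudocount of 5 (0.68, adjusted p = 0.0133). It also passed with WT and rapamycin alone in the fit (0.84, adjusted p = 0.0149), so its call depended on the setting. In the direct comparison SUT532, SUT126, SUT390, SUT468, SUT053 and SUT125 were lower in bud27∆ than after rapamycin, by 3.78, 1.24, 1.04, 1.01, 0.83 and 0.53, and the call of SUT125 was lost by both count tests (adjusted p = 0.0968 and 0.225), with a pseudocount of 0.25 (adjusted p = 0.0572) and without any 1 library other than bud27∆ replicate 1 (adjusted p from 0.0502 to 0.256). DESeq2 also lost those of SUT390 and SUT468 (adjusted p = 0.0572 and 0.0549), and the call of SUT468 was lost without bud27∆ replicate 1 or rapamycin replicate 1 (adjusted p = 0.0715 and 0.0724).

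SUT532 moved beside ZRT1, which encodes the high-affinity zinc transporter of the plasma membrane. ZRT1, at chrVII:20978-22108 on the plus strand, starts 3268 bases from the 5′ end of SUT532. It had 75.5 and 83.0 scaled CPM in WT, 7.29 and 11.6 in bud27∆, and 141 and 145 after rapamycin. The 3 groups were apart, and the log2 fold changes were -2.97 in bud27∆ (SE 0.20, adjusted p = 3.47e-05), 0.84 after rapamycin (adjusted p = 0.00959) and -3.81 in the direct comparison, against -2.91, 0.87 and -3.78 for SUT532. The rapamycin call of ZRT1 was lost without WT replicate 1 or 2 (adjusted p = 0.0918 and 0.0612). ADH4, an alcohol dehydrogenase gene 905 bases from the 3′ end of SUT532 on the other side, had -0.51 in bud27∆ (adjusted p = 0.0624), which passed with DESeq2 size factors (adjusted p = 0.0492) and without bud27∆ replicate 2 (-0.74, adjusted p = 0.0138). It fell by 0.73 after rapamycin (adjusted p = 0.0168), a call lost on the deposited scale and without WT replicate 2 or either rapamycin library.

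For the other annotated SUTs the neighbours and the SUT did not always move together. SPS100 had 10 and 11 reads in WT, 1 and 0 in bud27∆, and 181 and 119 after rapamycin, where it rose by 1.91 (SE 0.22, adjusted p = 0.000305). SUT169 had 2 and 0, 0 and 1, and 1 and 0 reads in the same libraries, at the floor in every group. PST2, next to the 3′ end of SUT468 at a distance of 1850 bases, rose by 0.80 after rapamycin (adjusted p = 0.0021) and fell by 0.76 in bud27∆ (adjusted p = 0.00302), the latter lost on the deposited scale (adjusted p = 0.0679). MRH1, 372 bases from the 3′ end of SUT053, had -0.46 in both comparisons with WT (adjusted p = 0.0257 and 0.0259), and the deposited scale gave -0.06 in bud27∆ (adjusted p = 0.681) and, with a change of sign, 0.12 after rapamycin. Both MRH1 calls were also lost without either WT library or either rapamycin library, and that of bud27∆ with the 2 groups alone in the fit (adjusted p = 0.0619). YPR015C, 452 bases from SUT418 on the opposite strand, rose by 2.44 after rapamycin (adjusted p = 0.000149) and fell by 1.14 in bud27∆ (adjusted p = 0.00584), while SUT418 had 3 and 1 reads in WT, 1 and 0 in bud27∆, and 13 and 14 after rapamycin.

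**Figure D5:**
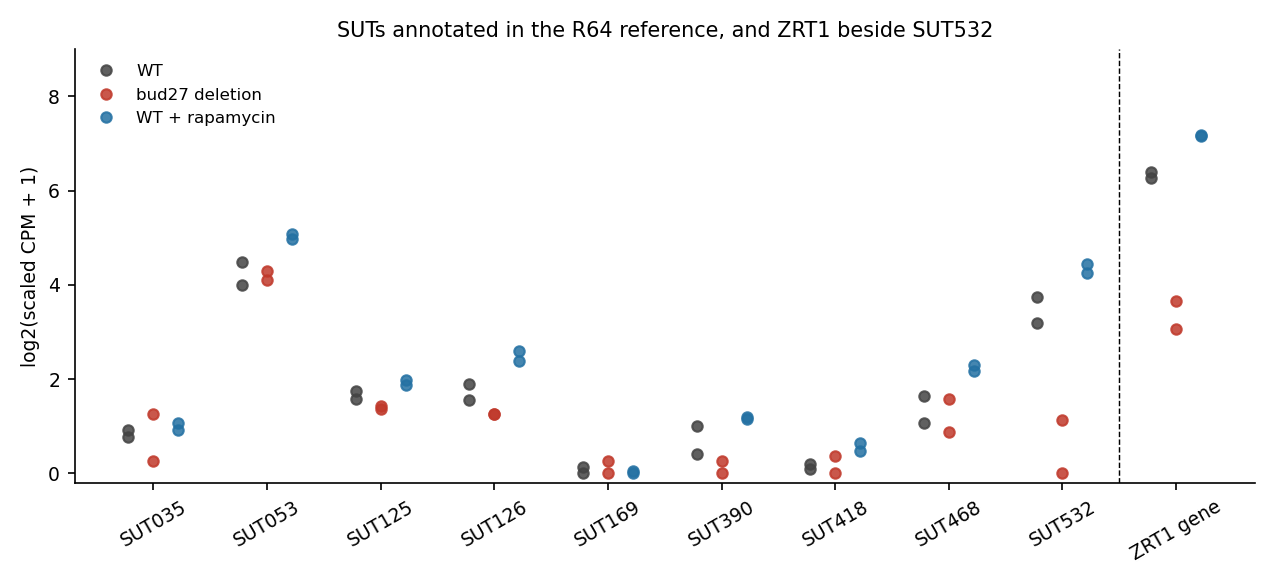
Levels of the 9 SUTs annotated in R64 and of ZRT1, as log2(scaled CPM + 1), with each library as a point coloured by group. The bud27∆ points of SUT532 and of ZRT1 lie below those of WT, and the rapamycin points lie above, while SUT169 is near 0 in every library.

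Some SUT rows cannot be told apart from another row. In 12 of them, with over 300 reads in all, the reads equalled those of another row within 0.1 log2 units in every library. SUT067 held 4034 reads where the row of SWR1, which encodes the ATPase of a chromatin remodeller, held 4105. The other 11 matched CUT rows, among them SUT489 with 2748 reads and CUT530 with 2751, and SUT175 and CUT185 with 391 each. These 12 were kept out of the named SUTs. Without them the SUT share of listed reads was 0.236% and 0.291% in WT, 0.387% and 0.300% in bud27∆, and 0.677% and 0.651% after rapamycin.

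The genes whose products end, degrade or limit noncoding transcripts were examined in 4 lists. For the deposited scale set beside them, 3319 of all 6551 rows were called in bud27∆, 3883 after rapamycin and 3421 in the direct comparison, in either direction. Calls by direction were not counted over all rows on that scale, so rises and falls in a list have no such share beside them. The medians over all rows on that scale were 0.293, 0.56 and -0.197. Of 18 genes of the nuclear exosome and its cofactors, all tested, none rose and 12 fell after rapamycin (all rows 24.1% higher and 20% lower), with a median log2 fold change of -0.58 against 0.06 over all rows. MTR4, the helicase of TRAMP, fell by 1.03, from 149 ± 22.6 to 72.3 ± 1.27 scaled CPM (SD, n = 2), and PAP2, its poly(A) polymerase also known as TRF4, by 0.98. DIS3 and RRP6, the nucleases, fell by 0.63 and 0.60 (adjusted p = 0.00603 and 0.0326). On the deposited scale MTR4 and PAP2 alone of the list still fell, LRP1 and AIR1 rose, and the median was -0.02 against 0.56 over all rows. The CUT share, which was lower beside this, and the SUT share, which was higher, are those given above, and the part of these genes in either was not tested.

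In bud27∆ 3 genes of the exosome list rose, AIR2, RRP4 and LRP1, and 2 fell, CSL4 and RRP40, with a median of -0.01, where 20.6% of all rows were higher and 24.5% lower. With the deposited CPM 7 rose, RRP6, RRP42, MPP6 and PAP2 among them, CSL4 alone fell, and the median was 0.37. CSL4, a subunit of the exosome cap, fell by 1.02 (SE 0.13, adjusted p = 0.000656). The call of RRP4 (0.63, adjusted p = 0.0386) was lost without either WT library or bud27∆ replicate 1 and with no filter on low values. Set against rapamycin directly, 12 of the 18 were higher in bud27∆ and none lower (all rows 24.1% higher and 29.5% lower). The median was 0.57, with PAP2 at 1.31 and RRP4 at 1.25. Without TMM 8 were higher, and CSL4 was lower.

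Of 24 tested genes for termination by Nrd1-Nab3-Sen1 and for cleavage and polyadenylation, 7 rose and 3 fell in bud27∆ (all rows 20.6% higher and 24.5% lower), with a median of 0.30. PCF11, a subunit of cleavage factor IA, had 35.8 ± 4.77 scaled CPM in WT and 12.8 ± 1.90 in bud27∆ (SD, n = 2) and fell by 1.41 (SE 0.18, adjusted p = 0.000656). NAB3, which binds the TCTT motif shown above, fell by 0.96 (SE 0.13, adjusted p = 0.000818), and HRP1 by 0.63. NRD1, the partner of Nab3, rose by 0.99 and the helicase gene SEN1 by 0.96 (adjusted p = 0.00275 and 0.00203). After rapamycin HRP1, CFT1, RNA14 and NRD1 fell and FIP1 rose (all rows 24.1% higher and 20% lower). HRP1, which binds the RNA during 3′ end formation, fell by 1.32 (SE 0.13, adjusted p = 0.000147), and the call of CFT1 (-0.61, adjusted p = 0.0282) was lost without any 1 of the WT and rapamycin libraries and on the deposited scale. Against rapamycin, 14 were higher in bud27∆ and 2, PCF11 and NAB3, lower (all rows 24.1% higher and 29.5% lower). RNA15 was at 1.23 and PCF11 at -1.04. Without TMM 14 rose while NAB3 and PCF11 fell in bud27∆, 8 rose while HRP1 fell after rapamycin, and in the direct comparison 7 were higher while NAB3, PCF11 and PAP1 were lower.

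Of 20 tested genes of decapping, 5′ to 3′ decay and nonsense-mediated decay, DCS1, LSM2, DCP2 and NMD2 rose and PAT1 and LSM1 fell in bud27∆ (all rows 20.6% higher and 24.5% lower). PAT1, an activator of decapping, had 214 ± 14.8 scaled CPM in WT and 49.7 ± 12.4 in bud27∆ (SD, n = 2) and fell by 2.10 (SE 0.18, adjusted p = 9.56e-05). After rapamycin EDC2 and DCS1 rose and LSM1, LSM2, LSM5 and EDC3 fell (all rows 24.1% higher and 20% lower). EDC2, an enhancer of decapping whose row is joined with a neighbouring feature, rose by 2.41 (SE 0.13, adjusted p = 1e-05), and DCS1, a scavenger decapping enzyme, by 1.41. XRN1, the exonuclease itself, had 0.29 in bud27∆ and -0.10 after rapamycin (adjusted p = 0.105 and 0.587), but passed the test as higher in both on the deposited scale. Against rapamycin XRN1, DHH1, LSM2, NMD2 and EDC3 were higher and EDC2, PAT1 and DCS1 lower in bud27∆ (all rows 24.1% higher and 29.5% lower). By the deposited scale 10 rose and 1, PAT1, fell in bud27∆, and 9 rose and none fell after rapamycin, where LSM1, LSM2, LSM5 and EDC3 no longer passed. In the direct comparison on that scale LSM2 was higher and DCS1, PAT1, LSM3 and EDC2 lower.

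Of 31 tested genes for chromatin factors that limit noncoding transcription, 10 rose and 5 fell in bud27∆ (all rows 20.6% higher and 24.5% lower), with a median of 0.19. RTT106, a histone chaperone whose row is joined with a neighbouring feature, rose by 1.27 (SE 0.14, adjusted p = 0.000364) and CHD1, a nucleosome remodeller, by 1.06, while REB1, HIR1 (also a joined row), HDA1, SPT2 and HIR2 fell. After rapamycin SPT10 and RAD26 rose and HIR2 and SPT6, histone chaperone genes, fell by 0.73 and 0.71 (all rows 24.1% higher and 20% lower). The calls of HIR2 and SPT6 were lost on the deposited scale (adjusted p = 0.336 and 0.444, limma), and that of SPT6 also without rapamycin replicate 2. Against rapamycin 8 were higher in bud27∆ and REB1, HIR1 and SPT2 lower (all rows 24.1% higher and 29.5% lower). On the deposited scale 18 rose while HIR1 and REB1 fell in bud27∆, and 19 rose and none fell after rapamycin. In the direct comparison on that scale SET2, SPT6, RTT106 and CHD1 were higher and 6 were lower. The list medians there were 0.553 in bud27∆, 0.55 after rapamycin and 0.0937 in the direct comparison, against 0.293, 0.56 and -0.197 over all rows. The SUT counts beside these lists are those given above, and whether the lists bear on them was not tested.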

How the data were processed

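RNA of 6 samples was sequenced from its 3′ ends (QuantSeq), per the labels' protocols. FastQC, HISAT2, DESeq, DESeq2 and build R64 are named, without versions, in the submitters' processing notes. Not given in the sources used here are the counting tool, its annotation, its strand setting and its treatment of reads with several matches. A single table of CPM values was deposited by the authors. Whole reads were recovered from it, with every value within 0.01 of a whole number. Between 18.8% and 31.2% of each library's total lay outside the listed rows.

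Recovered reads passed a filter of 10 reads by group (edgeR 4.0.16). TMM factors came from gene rows. The main test was limma 3.58.1 in R 4.3.3 with a mean-variance trend on log2(scaled CPM + 1), with all 3 groups in 1 model (3 residual degrees of freedom) and Benjamini-Hochberg adjustment over 6551 rows at 0.05. edgeR's quasi-likelihood test and DESeq2 1.42.0 on the recovered reads were alternatives. Named SUTs were, for each direction, the 8 (6 for bud27∆ against rapamycin) of largest fold change among called rows with a mean of at least 3 scaled CPM, groups without overlap and no other row's reads, with the 10 most abundant of WT and the 9 annotated ones. Genes named from lists by rule had the largest fold changes at a mean of at least 20 scaled CPM, and the others were added where a count was small or a role was of interest. Members and lists were chosen with earlier results of these data known. The script was tested on simulated data. RefSeq R64 gave sequences, positions and neighbours.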

Additional observations from a re-analysis of the deposited data

How the results depend on the processing

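The direction of the SUT median was the same under each limma alternative and from group means, and it was not computed for edgeR or DESeq2. SUT rows called with a library left out ranged from 135 to 315 in bud27∆ against WT, from 147 to 350 after rapamycin and from 267 to 394 between bud27∆ and rapamycin. The lowest came without WT replicate 2 for bud27∆ (135), and for rapamycin the calls were 159 and 172 without WT replicate 1 or 2 and 147 and 150 without rapamycin replicate 1 or 2. A group left with 1 library was assumed to vary like the others. The medians in bud27∆, after rapamycin and between them were -0.0326, 0.717 and -0.698 on the deposited scale, -0.407, 0.475 and -0.865 with a pseudocount of 0.25, -0.0963, 0.14 and -0.216 with a pseudocount of 5, and -0.133, 0.172 and -0.333 with no filter. With a filter at 30 reads the last 2 were 0.458 and -0.739. The direct median was -0.682 with its 2 groups alone in the fit and -0.558 from group means, which was added after seeing the data. With a library left out the medians ranged from -0.335 to -0.204, from 0.266 to 0.347 and from -0.548 to -0.49. The cause was not tested.

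Per deposited total, the SUT share was 0.221% in WT, 0.253% in bud27∆ and 0.544% after rapamycin. It was 0.664% after rapamycin without the rows that hold another row's reads, and 0.237% in WT and 0.606% after rapamycin without the 10 most abundant, also added after seeing the data. MRH1 after rapamycin was 0.12 on the deposited scale.

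edgeR called 212, 318 and 332 SUT rows and DESeq2 190, 269 and 295. Over all 6551 rows edgeR called 2823, 3273 and 3476 and DESeq2 2712, 2999 and 3286. Deviations of same-numbered samples correlated at -0.03, -0.078 and 0.033, so no strong shared effect of the replicate number was seen. This cannot tell whether same-numbered samples were handled together. With the replicate block 244, 265 and 358 SUT rows were called, where calls over all rows came to 2831, 2797 and 3410. In that fit ADH4 in bud27∆ passed (adjusted p = 0.0456, limma), SUT532 after rapamycin passed (adjusted p = 0.0499) and SUT125 between bud27∆ and rapamycin did not (adjusted p = 0.0618). The bud27∆ libraries are the shallowest, so low SUTs there are the least well measured.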
